A study of Mus musculus with 17 samples.

Results

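The chemokine ligands measured here were the 37 genes whose symbol began with Ccl, Cxcl, Cx3cl or Xcl and a number, out of 47643 gene symbols in the table. The symbols Cxcl13, Ccl19 and Ccl21a, which also begin this way, were set aside, so 37 of 40 matching rows were used. Values came from RNA sequencing of the diaphragm, the main muscle of breathing, in 17 male C57BL/6J mice of 4 months of age. The 4 groups were tumor-free mice with mock injections (Control, n = 5), tumor-free mice given rFibcd1 (Control + rFibcd1, n = 5), tumor-bearing mice with mock injections (LLC, n = 3) and tumor-bearing mice given rFibcd1 (LLC + rFibcd1, n = 4). LLC stands for Lewis lung carcinoma, a mouse tumor cell line that was injected under the skin of the flanks and used as a model of muscle wasting in cancer. rFibcd1 is a recombinant form of the secreted protein Fibcd1 and was injected into the peritoneal cavity, which borders the diaphragm, whereas mock mice received the vehicle. All mice with a tumor carried this same cell line, and the labels name no treatment other than these.

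Chemokines are small secreted proteins that direct the movement of leukocytes by binding G protein-coupled receptors on their surface. Some, such as Cxcl12, are produced constitutively by stromal and endothelial cells and hold leukocytes and progenitors in a tissue, whereas most are induced by cytokines in macrophages, lymphocytes or stromal cells when a tissue is inflamed. Atypical chemokine receptors bind ligands without the usual signal and remove or transport them.

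Levels are given in TPM, a transcript abundance relative to the sample total that corrects for gene length and for the sequencing yield of a sample. The depth recovered from the low values was 50.7 to 54.5 M reads per sample (M, mega), and 1 TPM per kilobase of exon stood for 23.9 to 26.7 reads. Markers of muscle fibers (Acta1, Ckm, Myh1, Myh2, Myh7 and Tnnt3) were high in every mouse, as the tissue label states. Their sum was 44948 to 48924 TPM in Control, 44133 to 50262 TPM in Control + rFibcd1, 38547 to 40634 TPM in LLC and 39588 to 46250 TPM in LLC + rFibcd1 mice, so that LLC lay below Control without overlap. Of the 6, 3 (Ckm, Myh1 and Tnnt3) were called lower in LLC, beside 801 of 13305 tested genes called lower. The part of this shift in the ligand results was not tested. Mitochondrially encoded genes took 45.9 to 48.4% of TPM in Control and 41.3 to 44.3% in LLC mice. Each sample sums to the same total. The median tested gene was 0.16 higher in LLC than in Control on the log2 scale, and 0.081 higher after rescaling without mitochondrial genes, and a change of a ligand is best read against that shift. The labels give no date or library batch.

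A few of the ligands made up most of the total, and means over the 17 mice ran down to 0.00219 TPM for Cxcl15 among genes above 0 (plot of levels by mouse). Cxcl12, a ligand of Cxcr4 and Ackr3, averaged 58.1 TPM and contributed 29.8% of the summed ligand level. It was followed by Ccl6 (34.1 TPM), Ccl11 (25.4 TPM), Cxcl14 (21.2 TPM) and Ccl9 (11.5 TPM), and these 5 genes together gave 76.9% of the sum. This order is over all mice, and in Control mice alone Ccl6 was the fourth, at a mean of 21.5 TPM after Cxcl12 (45.4 TPM), Ccl11 (27.7 TPM) and Cxcl14 (24.6 TPM). The ranges of neighbors in this order overlapped, as between Ccl11 (16.9 to 32.1 TPM) and Cxcl14 (15.2 to 35.3 TPM). A further 12 ligands averaged 1 to 10 TPM, 11 averaged 0.1 to 1 TPM, 5 were above 0 but under 0.1 TPM, and 4 (Ccl19-ps3, Ccl21b, Ccl26 and Ccl27b) were listed at 0 in every mouse. The spread between mice differed widely among the ligands. Ccl27a stayed between 5.70 and 6.66 TPM in all 17 mice, whereas Ccl8 ranged from 0.0783 to 23.3 TPM and Ccl5 from 0.302 to 17.5 TPM. Summed over all ligands, the level was 164 ± 15.4 TPM in Control (SD, n = 5), 163 ± 52.7 TPM in Control + rFibcd1 (SD, n = 5), 244 ± 16.5 TPM in LLC (SD, n = 3) and 238 ± 29.96 TPM in LLC + rFibcd1 (SD, n = 4). The LLC mice, at 233 to 263 TPM, were all above the Control mice, at 146 to 183 TPM, and 1 Control + rFibcd1 mouse reached 251 TPM.

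**Figure D1:**
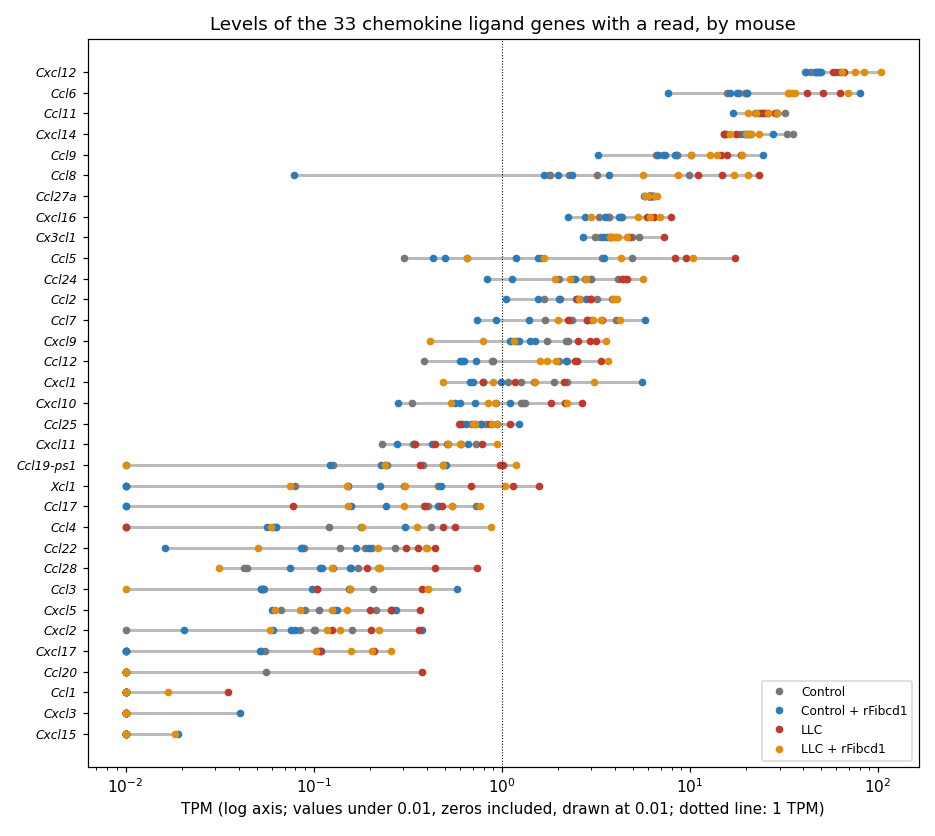
TPM of each chemokine ligand gene with a value above 0, on a log axis, with 1 point per mouse colored by group and a gray line over the range of the 17 mice, ordered by mean level. Cxcl12 leads with 40.9 to 104 TPM, Ccl27a is the tightest at 5.70 to 6.66 TPM, and Ccl8 and Ccl5 have wide ranges with LLC mice at the upper end.

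Differences were tested with limma on log2(TPM + 1) among the 13305 genes that reached 1 TPM in 3 mice or more. Of the 37 ligands, 18 passed this filter and 19 did not. Among the 18, Xcl1 passed only through 3 tumor-bearing mice, so its entry into the test already reflects where it was high. A ligand is said to have risen or fallen where its p, adjusted by the Benjamini-Hochberg method over all tested genes, was under 0.05.

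Several ligands rose with a tumor. Ccl8, Ccl5, Ccl12, Cxcl16, Cxcl10 and Cxcl12 were higher in LLC than in Control mice, at 1.37-fold (Cxcl12) to 5.41-fold (Ccl5) by mean TPM, and no ligand fell. Xcl1 was also called, at 5.74-fold, but it could enter the test only through tumor-bearing mice. These 7 of 18 tested ligands, or 6 of 17 without Xcl1, compare with 35.8% of all tested genes called in this comparison, so the share of ligands called was close to that of genes in general. The median log2 change was 0.51 for the 18 ligands and 0.16 for all tested genes. In 11 of the 18, Xcl1 among them, every LLC mouse was above every Control mouse, which held for 33.6% of all tested genes in that direction. Over all 7 tumor-bearing against all 10 tumor-free mice, 10 ligands rose, namely the same 7, with the same limit for Xcl1, and Ccl6, Ccl9 and Ccl2, and none fell, beside 44.8% of all tested genes called. None of the 18 was higher in every tumor-bearing than in every tumor-free mouse, which held for 1.74% of tested genes. These comparisons share their Control and LLC mice and are not independent of each other. In bulk tissue, fewer cells of a type and less RNA per cell cannot be told apart, and the same holds for more. With all mice, 10 of 18 ligands had an unadjusted p under 0.05 in LLC against Control (limma), as did 6422 of 13305 tested genes. The count of ligands called there rested on few mice, since it was 0 without LLC replicate 3 and 3 without LLC replicate 1. This held for genes in general, with 24 of 13195 and 2254 of 13235 tested genes called in those fits. Over all tumor-bearing mice it was 5 without LLC replicate 3, where 4140 of 13195 tested genes were called. Scaling changed the balance of calls in LLC against Control, for genes in general as for the ligands. Of all tested genes, 3958 of the 4759 called were higher in the main fit. With median-ratio scaling, where the median tested gene changed by 0.028, 3 ligands were higher and 1 lower (Cxcl14). Beside them 2297 of the 4000 genes called were higher. After quantile normalization, where the median tested gene changed by -0.099, 4 ligands were higher and 2 lower (Cxcl14 and Ccl27a). Beside them 1510 of the 4685 genes called were higher. In tumor-bearing against tumor-free mice, 5167 of the 5963 genes called were higher in the main fit. Median-ratio scaling gave 7 ligands higher and 1 lower (Cxcl14), beside 2766 higher of 4802 genes called. Quantile normalization gave 7 higher and 2 lower (Cxcl14 and Ccl27a), beside 1819 higher of 5144 genes called. Cxcl14 was also called lower in this comparison without Control replicate 1 (adjusted p = 0.0494, limma).

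**Figure D2:**
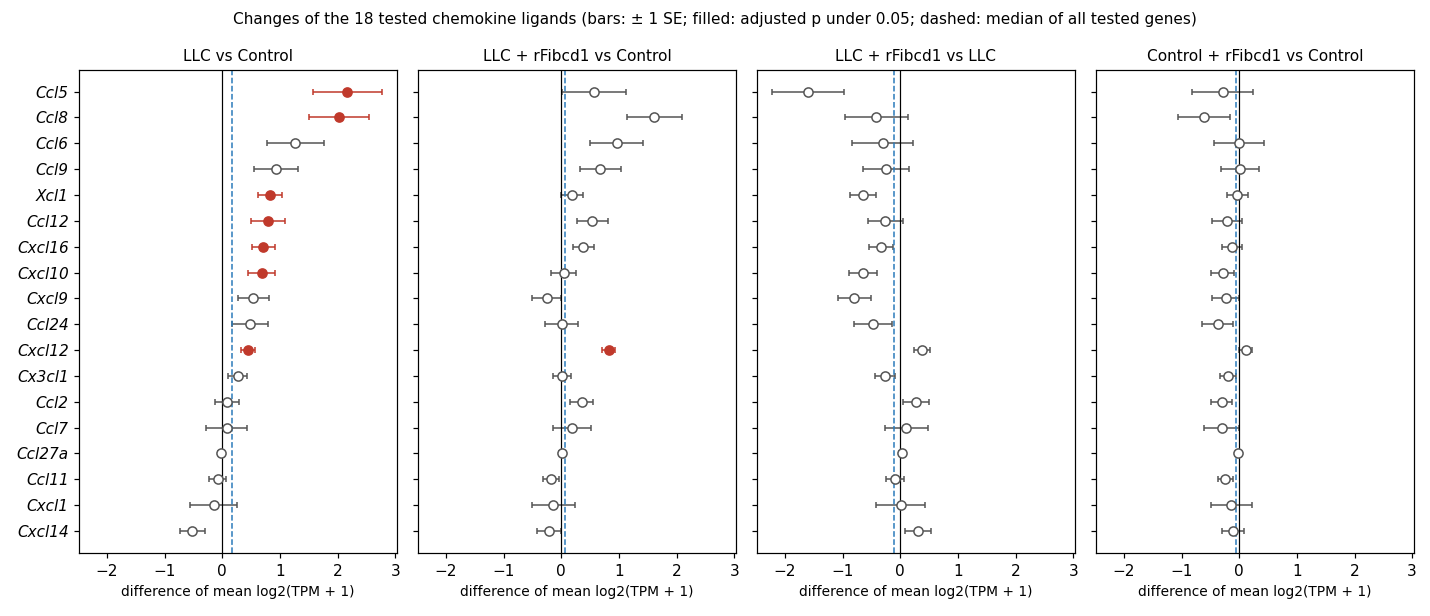
Difference of mean log2(TPM + 1) for the 18 tested ligands in 4 comparisons, with bars of 1 SE, filled red points for an adjusted p under 0.05 and a dashed line at the median of all tested genes. In LLC against Control 7 points are filled, all to the right of 0, in LLC + rFibcd1 against Control only Cxcl12 is, and none is in the other comparisons.

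Cxcl12 (chr6:117168535-117181367, plus strand, GRCm38 in GENCODE vM21, as are the gene positions that follow) was the most abundant ligand and the only one called in tumor-bearing mice given rFibcd1. It measured 40.9, 46.1, 48.6, 47.3 and 44.0 TPM in the Control mice, and 49.9, 46.9, 41.5, 48.5 and 60.1 TPM in the Control + rFibcd1 mice. In the LLC mice it measured 62.9, 66.2 and 57.5 TPM, and in the LLC + rFibcd1 mice 104, 75.3, 84.7 and 64.3 TPM. All tumor-bearing mice except LLC replicate 3 were above all tumor-free mice, and the LLC + rFibcd1 mice were the highest group with an overlap of LLC by a single mouse. The log2 change was 0.45 ± 0.13 (SE) in LLC against Control (adjusted p = 0.0185, limma) and 0.82 ± 0.12 (SE) in LLC + rFibcd1 against Control (adjusted p = 0.00317, limma). In the latter comparison 1 of 18 ligands was called, beside 3.08% of all tested genes. This rise held when any 1 of the 17 mice was left out, whereas that in LLC against Control was lost without LLC replicate 1 or LLC replicate 3 (adjusted p up to 0.0721, limma) and under each of the 3 other scalings (adjusted p from 0.00452 to 0.315 over the 10 alternatives other than leaving out a mouse). Between LLC + rFibcd1 and LLC mice the log2 difference in Cxcl12 was 0.37 ± 0.13 (SE) and did not pass the adjustment (adjusted p = 0.192, limma). With all tumor-bearing set against all tumor-free mice Cxcl12 rose by 0.60 ± 0.086 (SE) on the log2 scale (adjusted p = 0.000553, limma). Markers of endothelium (Pecam1, Cdh5, Kdr, Tek and Emcn) summed to 141 to 169 TPM in Control, 136 to 164 TPM in Control + rFibcd1, 160 to 182 TPM in LLC and 179 to 205 TPM in LLC + rFibcd1 mice, and their part in the Cxcl12 result was not tested.

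Of the other ligands made by stromal cells or held on the cell membrane, Cxcl16 rose, whereas Cxcl14 and Cx3cl1 did not pass. Cxcl16 (chr11:70453983-70459984), a membrane-bound ligand of Cxcr6 on T and NKT cells, measured 3.73, 4.35, 3.71, 3.62 and 3.29 TPM in Control and 6.47, 5.90 and 7.99 TPM in LLC mice. The groups did not overlap, and the log2 change was 0.71 ± 0.20 (SE, adjusted p = 0.0171, limma). This call was lost without LLC replicate 3 (adjusted p = 0.0942, limma). Over all tumor-bearing against all tumor-free mice the log2 change was 0.58 (adjusted p = 0.00490, limma), and that call held with any 1 mouse left out. In LLC + rFibcd1 mice Cxcl16 measured 2.98, 6.91, 6.18 and 5.32 TPM, with 1 mouse below all Control mice and the others above. Cxcl14, which epithelial and stromal cells make without inflammation, measured 15.5, 18.6, 35.3, 20.4 and 33.0 TPM in Control and 15.2, 17.7 and 15.2 TPM in LLC mice. Its log2 difference was -0.52 ± 0.22 (SE, adjusted p = 0.0746, limma), the largest decrease among the tested ligands, with an overlap at the low end of Control. It was called lower without Control replicate 1 (adjusted p = 0.0276, limma) and when values were scaled by median ratios, by quantiles or without mitochondrial genes (adjusted p = 0.0374, 0.0237 and 0.0498, limma), settings that lower the shift common to all genes. Cx3cl1, the membrane-bound ligand of Cx3cr1 also called fractalkine, averaged 4.16 ± 0.979 TPM in Control (SD, n = 5) and 5.30 ± 1.80 TPM in LLC mice (SD, n = 3), a log2 difference of 0.27 ± 0.17 (SE, adjusted p = 0.206, limma).

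Ccl8 and Ccl12 were both called higher in tumor-bearing mice and lie beside each other in a cluster of monocyte and eosinophil attractants on chromosome 11 that also holds Ccl2, Ccl7 and Ccl11. Their ratio was not steady, since Ccl8 measured 0.131 to 9.24 times the TPM of Ccl12 in the 17 mice. Because both were called and are neighbors, the 250 bases before the RefSeq start site of each are shown, on GRCm38.p6 and 5′ to 3′ on the strand of the gene (plus for both), at chr11:82114935-82115184 for Ccl8 and chr11:82101595-82101844 for Ccl12. Capitals mark the letters TATAAA, searched on the strand of the gene only, which begin 32 bases before the start in Ccl8 and 31 bases before it in Ccl12.
Ccl8: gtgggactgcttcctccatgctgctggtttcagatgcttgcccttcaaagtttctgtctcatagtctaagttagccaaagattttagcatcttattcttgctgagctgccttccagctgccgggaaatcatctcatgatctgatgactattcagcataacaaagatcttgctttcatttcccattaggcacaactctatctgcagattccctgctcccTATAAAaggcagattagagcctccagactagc
Ccl12: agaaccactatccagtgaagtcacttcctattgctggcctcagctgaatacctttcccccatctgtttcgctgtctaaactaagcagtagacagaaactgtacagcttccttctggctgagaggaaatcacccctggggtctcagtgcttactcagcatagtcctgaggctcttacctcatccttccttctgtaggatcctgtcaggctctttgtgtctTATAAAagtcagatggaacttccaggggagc
These letters occur in 7.59% of 32851 RefSeq windows of this length and in 8 of the 24 ligand genes for which a window was matched. The 24 genes have 30 windows and a gene counts if any of its windows matched, so the figures are in unlike units. No match was found in either window for the other motifs searched on both strands, GGANTTTCC or GGGNTTTCC (the NF-kB type), GAAANNGAA (part of an interferon response element) and TTCNNNGAA (the STAT type), a statement about these letters in these windows only.

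Ccl8, which in the mouse binds Ccr8, showed the second largest log2 change in LLC against Control and the largest over all tumor-bearing against tumor-free mice. It measured 3.19, 9.93, 1.80, 2.27 and 1.78 TPM in Control, 3.72, 2.00, 0.0783, 1.69 and 2.37 TPM in Control + rFibcd1, 14.9, 23.3 and 11.1 TPM in LLC, and 5.65, 17.2, 20.3 and 8.67 TPM in LLC + rFibcd1 mice. Every LLC mouse was above every Control mouse, although Control replicate 2 stood far above its group, and 2 of the LLC + rFibcd1 mice lay below it. These values rested on 1 to 298 reads per mouse. The log2 change was 2.03 ± 0.52 (SE) in LLC against Control (adjusted p = 0.0137, limma), lost without LLC replicate 3 (adjusted p = 0.0694, limma). In LLC + rFibcd1 against Control it was 1.61 ± 0.48 (SE, adjusted p = 0.0798, limma) and passed without Control replicate 2 (1.97, adjusted p = 0.0262, limma). Over all tumor-bearing against all tumor-free mice the log2 change was 2.10 ± 0.35 (SE, adjusted p = 0.00119, limma), and this call held with any 1 mouse left out.

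Ccl12, a mouse ligand of Ccr2 on monocytes, measured 0.889, 2.22, 2.02, 0.894 and 0.385 TPM in Control and 2.46, 2.52 and 3.39 TPM in LLC mice, which did not overlap. Ccl12 rested on 5 to 51 reads per mouse. Its log2 change of 0.80 ± 0.29 (SE, adjusted p = 0.0451, limma) was near the threshold and was lost in 9 of 17 fits with 1 mouse removed (each LLC mouse, Control replicates 1, 4 and 5, Control + rFibcd1 replicate 2, and LLC + rFibcd1 replicates 1 and 2), with an adjusted p of up to 0.169 without LLC replicate 3. It was also lost in all 10 other settings tried (adjusted p 0.0502 to 0.639). In LLC + rFibcd1 mice it measured 1.74, 1.93, 3.69 and 1.61 TPM, within the Control range for 3 of 4 mice. Over all tumor-bearing against all tumor-free mice the log2 change was 0.75 ± 0.20 (SE, adjusted p = 0.00840, limma), and it held with any 1 mouse left out. The other Ccr2 ligands did not separate LLC from Control mice. Ccl2, the main monocyte attractant, averaged 2.68 ± 0.881 TPM in Control (SD, n = 5) and 2.81 ± 0.266 TPM in LLC mice (SD, n = 3), and it measured 2.57, 4.00, 4.09 and 3.89 TPM in LLC + rFibcd1 mice. Over all tumor-bearing against tumor-free mice it rose by 0.39 ± 0.14 (SE) on the log2 scale (adjusted p = 0.0372, limma), a call kept in 9 of 17 fits with 1 mouse removed and lost without Control replicate 5, LLC replicate 3, any of Control + rFibcd1 replicates 2, 3 and 4 or any of LLC + rFibcd1 replicates 2, 3 and 4 (adjusted p up to 0.0814, limma). It passed in 2 of 8 other settings and was lost under each other scaling and with no filter on low values (adjusted p up to 0.649). Ccl7 ranged from 1.70 to 4.07 TPM in Control and from 2.24 to 3.40 TPM in LLC mice, a log2 difference of 0.077 ± 0.36 (SE, adjusted p = 0.879, limma).

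The eosinophil attractants Ccl11 and Ccl24, ligands of Ccr3, did not pass in any comparison with all mice in the fit. Ccl11, the third ligand by level, measured 28.6, 26.2, 29.1, 22.3 and 32.1 TPM in Control and 24.1, 25.4 and 28.5 TPM in LLC mice, with a log2 difference of -0.079 ± 0.15 (SE, adjusted p = 0.701, limma). Its level thus stayed within the Control range in LLC mice while Ccl8 and Ccl12, in the same cluster, rose. Ccl24 measured 2.76, 4.16, 2.97, 3.00 and 2.01 TPM in Control and 4.36, 4.40 and 4.63 TPM in LLC mice, which did not overlap, yet its log2 difference of 0.48 ± 0.32 (SE) did not pass (adjusted p = 0.238, limma). Ccl24 passed when only the LLC and Control mice were fitted (adjusted p = 0.0371, limma), and with a tumor against without, leaving out Control + rFibcd1 replicate 1 (0.47, adjusted p = 0.0426, limma). Ccl1, a ligand of Ccr8, was above 0 in 2 mice, at 0.0349 TPM in LLC replicate 3 and 0.0168 TPM in LLC + rFibcd1 replicate 2. Ccr3 and Ccr8, the receptors of this group, averaged between 0.00493 and 0.116 TPM in the 4 groups and were not tested.

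The inflammatory CC ligands Ccl3, Ccl4, Ccl5, Ccl6 and Ccl9, which attract monocytes, macrophages or activated T cells, held the ligand with the largest log2 change in LLC against Control. Ccl5 (chr11:83525778-83530518), made mainly by T and NK cells, measured 3.40, 4.92, 0.653, 1.63 and 0.302 TPM in Control, 3.49, 1.19, 0.50, 0.429 and 1.56 TPM in Control + rFibcd1, 8.39, 9.51 and 17.5 TPM in LLC, and 0.650, 4.28, 10.4 and 1.67 TPM in LLC + rFibcd1 mice. The LLC mice were all above the tumor-free mice, and of the LLC + rFibcd1 mice only replicate 3 lay in the LLC range. The log2 change in LLC against Control was 2.17 ± 0.60 (SE, adjusted p = 0.0166, limma), lost without LLC replicate 3 (1.87, adjusted p = 0.0901, limma). In the 7 tumor-bearing against the 10 tumor-free mice it was 1.40 ± 0.41 (SE, adjusted p = 0.0133, limma) and was lost without the same mouse (adjusted p = 0.0543, limma).

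Ccl6 and Ccl9, abundant ligands of Ccr1 made by myeloid cells, are neighbors on chromosome 11, with a ratio of Ccl6 to Ccl9 of 2.12 to 3.69 in the 17 mice. Ccl6 measured 19.7, 33.5, 20.1, 15.8 and 18.2 TPM in Control, 80.2, 17.8, 16.4, 7.68 and 20.2 TPM in Control + rFibcd1, 51.3, 63.1 and 42.0 TPM in LLC, and 33.1, 69.7, 36.3 and 34.8 TPM in LLC + rFibcd1 mice. The highest value of all was that of a tumor-free mouse, Control + rFibcd1 replicate 1. Ccl9 measured 7.16, 10.1, 8.57, 6.61 and 8.56 TPM in Control, 24.5, 7.40, 6.76, 3.26 and 8.38 TPM in Control + rFibcd1, 14.7, 18.8 and 15.8 TPM in LLC, and 10.1, 18.9, 13.9 and 12.8 TPM in LLC + rFibcd1 mice. The LLC mice were above the Control mice for both genes, with log2 differences of 1.27 ± 0.50 (SE, adjusted p = 0.0594, limma) for Ccl6 and 0.93 ± 0.38 (SE, adjusted p = 0.0688, limma) for Ccl9. Both passed without Control + rFibcd1 replicate 1, whose values enter the pooled spread (adjusted p = 0.00821 for Ccl6 and 0.00864 for Ccl9, limma), and without Control + rFibcd1 replicate 4 (0.0350 and 0.0342). Both also passed when only the LLC and Control mice were fitted (adjusted p = 0.00609 for Ccl6 and 0.00424 for Ccl9, limma), and Ccl6 passed without Control replicate 2 (adjusted p = 0.0434, limma). In the 7 tumor-bearing against the 10 tumor-free mice both rose, by 1.09 ± 0.34 (SE, adjusted p = 0.0182, limma) for Ccl6 and by 0.78 ± 0.26 (SE, adjusted p = 0.0245, limma) for Ccl9. That call of Ccl9 was lost without LLC replicate 2 or LLC replicate 3 (adjusted p up to 0.0515, limma). The sequences before the start sites of this pair, whose ratio stayed within that range, are shown for chr11:83578637-83578886 (Ccl9) and chr11:83593088-83593337 (Ccl6) on GRCm38.p6, minus strand, from RefSeq. Capitals mark TATAAA and a reverse-strand match to GGGNTTTCC in Ccl9, whereas no letters of the motifs searched occur in the window of Ccl6.
Ccl9: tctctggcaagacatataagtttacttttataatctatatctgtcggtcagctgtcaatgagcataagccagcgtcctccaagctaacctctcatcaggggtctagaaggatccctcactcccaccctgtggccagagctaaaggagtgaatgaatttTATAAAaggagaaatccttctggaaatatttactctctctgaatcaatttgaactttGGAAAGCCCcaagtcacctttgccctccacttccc
Ccl6: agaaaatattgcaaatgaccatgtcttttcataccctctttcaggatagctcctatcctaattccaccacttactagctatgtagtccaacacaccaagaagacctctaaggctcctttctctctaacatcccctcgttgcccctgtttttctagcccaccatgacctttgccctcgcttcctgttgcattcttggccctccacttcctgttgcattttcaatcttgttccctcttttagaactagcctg
Ccl3 and Ccl4, the remaining ligands of this group, were below the filter, at 0 to 0.580 TPM and 0 to 0.882 TPM.

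The ligands of Cxcr3, a receptor on activated T and NK cells, are induced by interferon-gamma and lie beside each other on chromosome 5. Their start-site windows are shown for Cxcl9 (chr5:92328080-92328329) and Cxcl10 (chr5:92348890-92349139), minus strand of GRCm38.p6 from RefSeq, because both belong to this group and Cxcl10 was called. Their ratio varied, with Cxcl9 at 0.487 to 4.44 times the TPM of Cxcl10 in the 17 mice. Capitals mark matches to GGANTTTCC or GGGNTTTCC, to GAAANNGAA and, in Cxcl9, to TATAAA.
Cxcl9: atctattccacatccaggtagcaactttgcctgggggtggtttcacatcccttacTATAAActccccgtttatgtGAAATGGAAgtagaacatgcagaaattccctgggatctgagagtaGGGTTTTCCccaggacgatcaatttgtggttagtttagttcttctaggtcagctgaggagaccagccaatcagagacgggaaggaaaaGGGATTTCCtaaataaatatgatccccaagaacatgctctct
Cxcl10: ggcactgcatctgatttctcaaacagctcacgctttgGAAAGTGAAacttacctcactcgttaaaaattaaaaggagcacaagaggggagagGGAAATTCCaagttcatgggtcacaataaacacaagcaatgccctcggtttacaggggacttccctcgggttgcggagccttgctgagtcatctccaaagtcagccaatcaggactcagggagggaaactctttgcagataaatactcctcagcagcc
The NF-kB type letters were found in 2.50% of all RefSeq windows and in 7 of the 24 ligand genes (Ccl9, Ccl20, Cxcl1, Cxcl2, Cxcl3, Cxcl9 and Cxcl10), and GAAANNGAA in 7.13% of all windows and in 5 of the 24 (Ccl1, Ccl3, Cxcl9, Cxcl10 and Cxcl14). The STAT type letters were in 7.02% of all windows and in 2 of the 24 (Ccl17 and Cxcl14). These genes include related copies whose windows are not independent, and genes are again set beside windows.

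Cxcl10 measured 1.26, 1.33, 0.935, 1.29 and 0.335 TPM in Control, 1.11, 0.561, 0.722, 0.279 and 0.603 TPM in Control + rFibcd1, 1.82, 2.16 and 2.67 TPM in LLC, and 0.849, 0.918, 2.22 and 0.536 TPM in LLC + rFibcd1 mice. The LLC mice were above all tumor-free mice, and of the LLC + rFibcd1 mice only replicate 3 was. The log2 change in LLC against Control was 0.68 ± 0.23 (SE, adjusted p = 0.0342, limma), lost in 5 of 17 fits with 1 mouse removed, namely each LLC mouse and Control replicates 3 and 5 (adjusted p up to 0.146 without LLC replicate 3). It passed in 3 of 10 other settings, and was lost under each other scaling and with a pseudocount of 0.1 TPM (adjusted p up to 0.789). Over all tumor-bearing against all tumor-free mice it was 0.46 ± 0.16 (SE, adjusted p = 0.0281, limma), lost without any 1 of the LLC mice or Control + rFibcd1 replicate 4 (adjusted p up to 0.105, limma), and it passed in 3 of 8 other settings. Its exons overlap those of Art3 on the opposite strand over 133 bases, 5.91% of their length, and Art3 was at 33.9 to 55.2 TPM, so reads there could be shared if strand was not used in counting. Cxcl9 measured 2.24, 2.21, 1.18, 1.74 and 1.21 TPM in Control, 3.18, 2.96 and 2.55 TPM in LLC, and 0.414, 1.16, 3.59 and 0.793 TPM in LLC + rFibcd1 mice. It was higher in every LLC mouse than in every Control mouse, but the log2 difference of 0.54 ± 0.27 (SE) did not pass (adjusted p = 0.127, limma). It passed without LLC + rFibcd1 replicate 3 (adjusted p = 0.0194, limma) and when only the LLC and Control mice were fitted (adjusted p = 0.0300, limma). Against Control, LLC + rFibcd1 mice differed by -0.26 ± 0.25 (SE, adjusted p = 0.589, limma), the lowest log2 value among the tested ligands in that comparison. Cxcl11, annotated as a pseudogene in this strain's reference, was at 0.231 to 0.941 TPM and below the filter.

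Xcl1 (chr1:164931644-164935527), which T and NK cells release to attract cross-presenting dendritic cells bearing Xcr1, was the lowest of the tested ligands. It measured 0.456, 0.303, 0.0799, 0.153 and 0 TPM in Control, 0.475, 0.225, 0.153, 0 and 0 TPM in Control + rFibcd1, 1.15, 0.686 and 1.58 TPM in LLC, and 0.0746, 0.305, 1.04 and 0.150 TPM in LLC + rFibcd1 mice, on 0 to 20 reads. The LLC mice and LLC + rFibcd1 replicate 3 were above all others. The log2 change in LLC against Control was 0.83 ± 0.21 (SE, adjusted p = 0.0133, limma), and over all tumor-bearing against all tumor-free mice 0.48 ± 0.14 (SE, adjusted p = 0.0151, limma). Because Xcl1 reached 1 TPM in 3 tumor-bearing mice and in 0 tumor-free mice, it was tested only where those mice were kept, and the calls it then gave are a description. Of its exon bases 18.7% overlap Gm20743 on the opposite strand, a gene at 0.279 to 0.856 TPM.

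Of the 5 ligands of Cxcr2, the main chemokine receptor of neutrophils, only Cxcl1 was tested, and it did not pass. Cxcl1 measured 2.21, 1.08, 1.49, 1.89 and 1.26 TPM in Control and 0.799, 2.13 and 1.17 TPM in LLC mice, a log2 difference of -0.15 ± 0.41 (SE, adjusted p = 0.793, limma). Its highest value, 5.56 TPM, was that of Control + rFibcd1 replicate 1. Cxcl2 and Cxcl5 were at 0 to 0.377 TPM and 0.0603 to 0.366 TPM, and Cxcl3 and Cxcl15 were above 0 in 1 and 2 mice. With the filter lowered to 0.1 TPM, Cxcl5 was called higher in LLC than in Control (0.18, adjusted p = 0.0465, limma). Over the same groups the markers of neutrophils (S100a8, S100a9, Retnlg, Ly6g, Csf3r and Cxcr2) summed to 1.84 to 14.3 TPM in Control, 2.87 to 78.4 TPM in Control + rFibcd1, 45.0 to 106 TPM in LLC and 55.0 to 206 TPM in LLC + rFibcd1 mice.

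Among the remaining ligands, which act at barrier surfaces or on Ccr4, Ccl27a was the only one tested. This ligand of Ccr10, known from skin, averaged 6.18 ± 0.267 TPM in Control (SD, n = 5) and 6.06 ± 0.0236 TPM in LLC mice (SD, n = 3), with a log2 difference of -0.023 ± 0.053 (SE, adjusted p = 0.750, limma). Relative to the median tested gene this was -0.18, and after quantile normalization it was called lower in LLC (-0.33, adjusted p = 0.0333, limma). Ccl25 was at 0.595 to 1.24 TPM, Ccl17 at 0 to 0.764 TPM, Ccl22 at 0.0161 to 0.444 TPM, Ccl28 at 0.0315 to 0.741 TPM and Cxcl17 at 0 to 0.256 TPM, and Ccl20 was above 0 in 2 mice. With the filter lowered to 0.1 TPM, 29 ligands entered the test. Ccl28 (0.36, adjusted p = 0.0165) then passed in LLC against Control in limma, as did Cxcl5, and Ccl22 (0.19, adjusted p = 0.0194) and Ccl28 (0.18, adjusted p = 0.0454) over all tumor-bearing against all tumor-free mice, all as higher log2 values. Ccl22 rested on 1 to 25 reads and Cxcl5 on 3 to 17 reads per mouse. Cxcl17 rested on 0 to 5 reads per mouse and reached 0.1 TPM in all 7 tumor-bearing but only 2 tumor-free mice, so it entered this test through tumor-bearing mice and its call is not given as a rise. Ccl19-ps1, Ccl19-ps3, Ccl21b and Ccl27b on chromosome 4 have near-identical copies, so their values (0 to 1.19 TPM for Ccl19-ps1, 0 for the others) are uncertain. Start-site windows of Ccl27a and Ccl27b are nearly the same. The level of Ccl27a may therefore depend on how reads common to both were assigned, which was not tested.

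**Figure D3:**
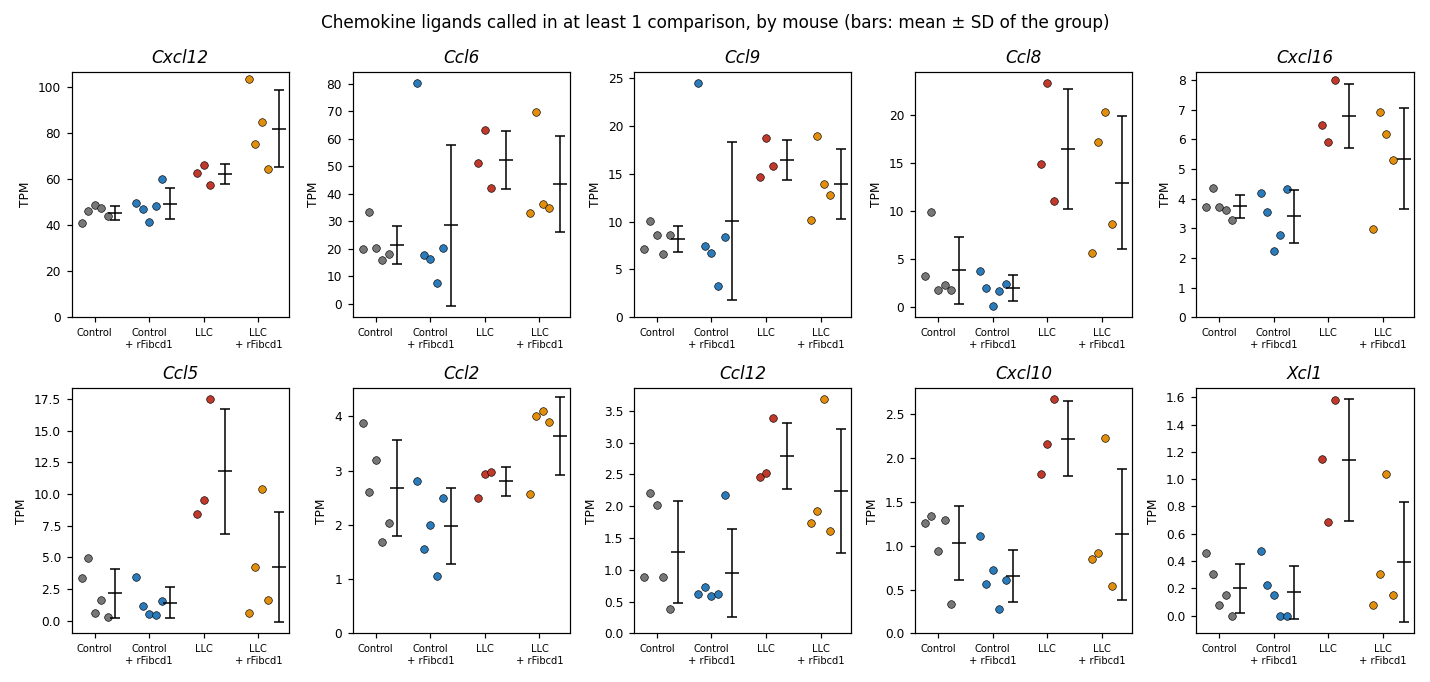
TPM by mouse in the 4 groups for the 10 ligands called in at least 1 comparison, with a bar at the mean and error bars of 1 SD. LLC mice lie above Control mice in 9 of the panels without overlap, Ccl2 being the exception, and in the panels of Ccl5, Cxcl10 and Xcl1 a single LLC + rFibcd1 mouse, replicate 3, lies at the level of the LLC mice.

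No ligand passed the adjusted threshold between mice given rFibcd1 and mock-injected mice with the same tumor status. In LLC + rFibcd1 against LLC mice 0 of 18 ligands passed in limma, beside 0.113% of all tested genes, and Dunn's test also gave 0, as it did over all tested genes in every comparison it was run for. At an unadjusted p under 0.05 there were 5, where all tested genes gave 22.7%. Among the 5 is Xcl1, which entered the test only through tumor-bearing mice. Ccl5 (-1.60 ± 0.63, adjusted p = 0.20), Cxcl9 (-0.79 ± 0.28, adjusted p = 0.192), Xcl1 (-0.65 ± 0.22, adjusted p = 0.185) and Cxcl10 (-0.64 ± 0.24, adjusted p = 0.198) had lower log2 means (± SE, limma), and Cxcl12, given above, a higher one. LLC + rFibcd1 replicate 3 lay within or above the LLC range for each of the 4 lower ones, whereas the other LLC + rFibcd1 mice lay below all LLC mice. Without that replicate Cxcl9 passed (-1.14, adjusted p = 0.0464, limma), beside 33 of 13259 tested genes, and no other tested ligand did. Xcl1 was not in that test. The replicate was singled out here from these same values, so this call is a description. Among tumor-free mice, Control + rFibcd1 against Control gave 0 of 18 ligands and 0% of tested genes in limma, and 0 ligands at an unadjusted p under 0.05, where all tested genes gave 4.39%. The largest log2 differences there were -0.62 ± 0.45 (SE, adjusted p = 0.927, limma) for Ccl8 and 0.11 ± 0.11 (SE, adjusted p = 0.927, limma) for Cxcl12. The interaction, which asks whether the effect of rFibcd1 differed with a tumor, was passed by 0 ligands and 0% of tested genes in limma (Dunn's test has no interaction). At an unadjusted p under 0.05 it was passed by 1 ligand, Xcl1 (-0.61, adjusted p = 0.581, limma), and by 8.58% of tested genes. Since Xcl1 was tested only through tumor-bearing mice, nothing is read from its interaction. Its largest positive value was that of Ccl2 (0.58 ± 0.28 SE, adjusted p = 0.602, limma) and its largest negative value that of Ccl5 (-1.31 ± 0.82 SE, adjusted p = 0.668, limma).

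Of 17 chemokine receptors 9 passed the filter. Ccr1, Ccr7, Cxcr4 and Cxcr5 were called higher in LLC than in Control. Ccr6, Cxcr2, Cxcr3 and Cx3cr1 were also called, but they reached 1 TPM in at most 1 tumor-free mouse and so entered the test through tumor-bearing mice, as Xcl1 did. Ccr2 did not pass (0.68, adjusted p = 0.0730, limma). These calls stand beside the 35.8% of all tested genes called in the comparison, and without LLC replicate 3 only 24 of 13195 tested genes were called. Cxcr2, whose tested ligand Cxcl1 did not pass, changed by 1.17 ± 0.25 on the log2 scale in LLC (SE, adjusted p = 0.0103, limma) and by 1.13 ± 0.23 in LLC + rFibcd1 (SE, adjusted p = 0.0158, limma) against Control. Cxcr3, the receptor of Cxcl9 and Cxcl10, changed by 1.47 ± 0.42 in LLC (SE, adjusted p = 0.0179, limma), and in LLC + rFibcd1 mice it ranged from 0.136 to 5.11 TPM. Cxcr4, the receptor of Cxcl12, averaged 4.66 ± 1.58 TPM in Control (SD, n = 5), 12.7 ± 4.19 TPM in LLC (SD, n = 3) and 6.12 ± 3.39 TPM in LLC + rFibcd1 mice (SD, n = 4), so that it was not highest in the group with the highest Cxcl12. Ackr3, which also binds Cxcl12, averaged 21.6 ± 1.59 TPM in Control mice (SD, n = 5) beside 22.9 ± 0.379 TPM in LLC (SD, n = 3) and did not pass (0.085, adjusted p = 0.626, limma). Among 5 atypical receptors Ackr1, which carries chemokines across venules, rose by 1.46 ± 0.27 in LLC (SE, adjusted p = 0.00825, limma) and by 1.46 ± 0.24 in LLC + rFibcd1 (SE, adjusted p = 0.00612, limma) against Control. Ackr4, which takes up Ccl19, Ccl21 and Ccl25, rose by 0.50 ± 0.14 in LLC (SE, adjusted p = 0.0165, limma). It measured 2.00 to 3.95 TPM in Control, 4.23 to 4.91 TPM in LLC and 2.36 to 3.53 TPM in LLC + rFibcd1 mice, where the difference from LLC was -0.52 ± 0.14 (SE, adjusted p = 0.142, limma) with no overlap.

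Marker genes of several cell types were summed beside the ligands in each mouse (plot of ligands beside markers). Markers of T cells (Cd3d, Cd3e, Cd3g, Cd2, Cd4 and Cd8a) summed to 2.18 to 15.8 TPM in Control, 1.64 to 17.4 TPM in Control + rFibcd1, 26.9 to 43.8 TPM in LLC and 3.23 to 40.2 TPM in LLC + rFibcd1 mice. Markers of B cells (Ms4a1, Cd79a, Cd79b, Pax5 and Cr2) summed to 2.17 to 77.4, 2.78 to 111, 178 to 225 and 15.1 to 218 TPM in the same order. All 6 and all 5 of these were called higher in LLC than in Control, beside 35.8% of all tested genes, but Cd3e, Cd4 and Cd8a reached 1 TPM in 2, 1 and 0 tumor-free mice and so entered the test through tumor-bearing mice. LLC + rFibcd1 replicate 3 held the highest T cell sum (40.2 TPM) and B cell sum (218 TPM) of its group, as it did for Ccl5, Cxcl9, Cxcl10, Xcl1 and Ccl12. NK cell markers (Ncr1, Klrb1c, Klre1 and Prf1) summed to 0.20 to 0.846 TPM in Control and 1.20 to 3.13 TPM in LLC mice, and LLC replicate 3, on which several calls rested, was the highest at 3.13 TPM. Macrophage markers (Adgre1, Cd68, Csf1r, Mrc1, Cd163 and Lyve1, 2 of 6 higher in LLC) summed to 69.1 to 91.1 TPM in Control, 43.7 to 130 TPM in Control + rFibcd1, 108 to 136 TPM in LLC and 70.6 to 139 TPM in LLC + rFibcd1 mice. The mice at the top of that list within their treated groups, Control + rFibcd1 replicate 1 (130 TPM) and LLC + rFibcd1 replicate 2 (139 TPM), were also those with the highest Ccl6 and Ccl9, whereas LLC + rFibcd1 replicate 3 had a macrophage sum of 83.3 TPM and a Ccl6 level of 36.3 TPM. With the mean log2 level of the B cell markers as a covariate, 0 ligands passed in LLC against Control (9 of all tested genes did). The B cell sums of LLC and Control mice did not overlap, so this score and the tumor cannot be told apart in that comparison. Over all tumor-bearing against all tumor-free mice, Cxcl12 and Ccl8 passed beside 582 of 13305 tested genes. Their log2 changes were 0.58 (adjusted p = 0.0162, limma) and 1.25 (adjusted p = 0.0308, limma). No part of B cells is read from either fit, and the part of any cell type in these results was not tested.

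**Figure D4:**
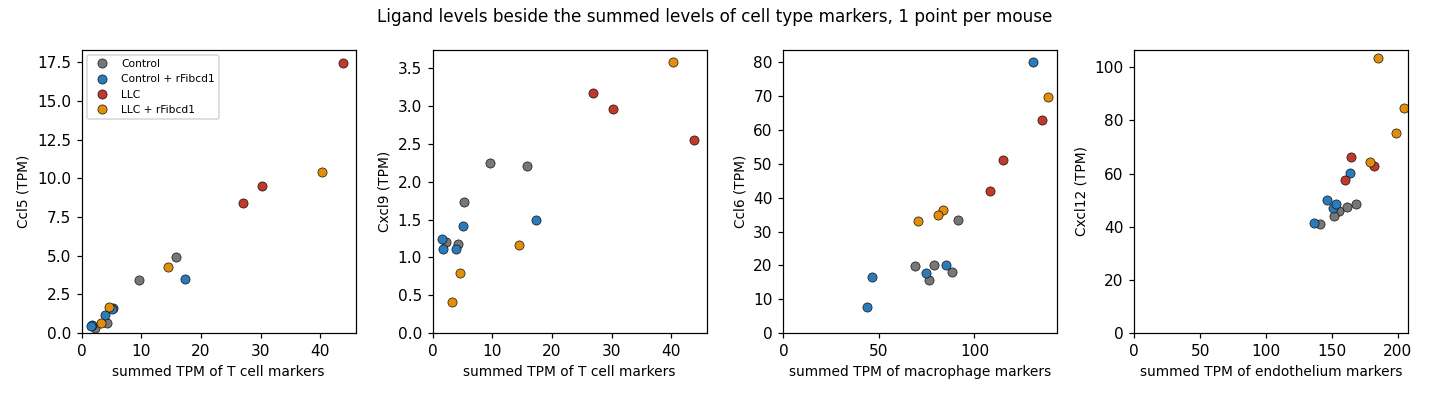
Levels of Ccl5, Cxcl9, Ccl6 and Cxcl12 in TPM against the summed TPM of marker genes of T cells, T cells, macrophages and endothelium, with 1 point per mouse colored by group. Ccl5 ranges from 0.302 to 17.5 TPM and its highest mice have the highest T cell sums, Ccl6 is highest in the mice with macrophage sums above 100 TPM, and the LLC + rFibcd1 mice lie at the upper end of both Cxcl12 and endothelium markers.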

How the data were processed

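RNA from the diaphragm of 17 mice was sequenced by the authors, who trimmed the reads and used CLC Genomics Workbench to align them to mouse GRCm38 (mm10) and quantify genes. Values were deposited by the authors as TPM, which sum to 1000000 in each sample. The annotation release and the use of strand in counting are not given in the sources used here, and these name different library kits and sequencers. Groups and replicate numbers came from the sample titles. The labels number the samples without naming animals, the study calls them biological replicates, and p-values measure the spread between these samples.

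TPM were transformed as log2(TPM + 1), so fold changes on the log2 scale understate those of low genes, and a gene was tested if it reached 1 TPM in 3 samples or more. The 4 groups were fitted in limma 3.58.1 (R 4.3.3) with 13 residual degrees of freedom and trended empirical Bayes moderation, with two-sided p-values adjusted by the Benjamini-Hochberg method. The fit was tested on simulated data. Read numbers were recovered from low TPM and exon lengths of GENCODE vM21, with 82.2 to 85.7% of low values within 0.02 of a whole read, and are estimates that cover counting error only. Start-site windows came from RefSeq GRCm38.p6, cut to the 250 bases before the start, and matched 24 ligand genes. Full statistics were given for ligands called in any comparison, the 5 most abundant, and the largest rise and fall in each. Others were given by level, and Cxcl1, Cxcl9, Ccl7, Ccl24, Ccl27a, Cx3cl1 and the ligands passing at a lower filter were added after their values were seen. The ligands, gene lists and tests were chosen with earlier results of these data known. Alternatives were other filters, a pseudocount of 0.1 TPM, other scalings, a B cell score as covariate, the replicate number as a block, Dunn's test (used in the study), only the groups compared, and leaving out each mouse.
Some genes of the receptor and marker lists are not reported here and were left out of the sums, counts and the B cell score.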

Additional observations from a re-analysis of the deposited data

Results flagged for a closer look

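Dixon's criterion was applied to TPM within groups of 4 or 5 mice. The highest or lowest value of a ligand stood apart from the rest of its group in 11 of 54 groups examined. The criterion's rate of about 1 in 20 holds for normal and independent values. TPM were not log-transformed here and the ligands share mice, so no excess is read from this number. Of these 11 values, 3 were those of Control + rFibcd1 replicate 1, with Ccl6 at 80.2 TPM, Ccl9 at 24.5 TPM and Cxcl1 at 5.56 TPM, each above the other mice of its group. Control replicate 2 stood above its group for Ccl8 (9.93 TPM) and Ccl6 (33.5 TPM). Control + rFibcd1 replicate 5 stood above its group for Ccl12 (2.18 TPM) and Cxcl14 (27.8 TPM), and Control + rFibcd1 replicate 3 stood below it for Cx3cl1 (2.72 TPM). In LLC + rFibcd1, replicate 2 was apart with a high Ccl6 (69.7 TPM), replicate 3 with a high Ccl12 (3.69 TPM) and replicate 1 with a low Ccl2 (2.57 TPM). The LLC group, with 3 mice, was too small to examine in this way.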

How the results depend on the processing

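The number of ligands called in LLC against Control (7) became 4 with median-ratio scaling (which drops Xcl1 from the test), beside 4000 of 13239 tested genes. It became 0 in Dunn's test and with the B cell score as covariate, which cannot be told apart from the tumor in this comparison. When each mouse was left out in turn it lay between 0 and 9, with 0 without LLC replicate 3 and 3 without LLC replicate 1. Over all tumor-bearing against all tumor-free mice (10) it became 2 with the B cell score (582 of all 13305 genes), and 5 to 11 when each mouse was left out. In LLC + rFibcd1 against Control (1) Dunn's test gave 0, as over all genes in every comparison it was run for. Leaving out mice gave 1 to 2 there, with 2 without Control replicate 2 (476 of 13287 tested genes). In LLC + rFibcd1 against LLC (0) leaving out mice gave 0 to 1, with 1 without LLC + rFibcd1 replicate 3 (33 of 13259 tested genes). Apart from the replicate block, given next, the other settings moved these counts by less than 1.5 times, and those of Control + rFibcd1 against Control and of the interaction were 0 throughout. The causes were not tested.

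With the replicate number as a block, 0 ligands were called in LLC against Control (5 of all tested genes) and 5 over all tumor-bearing mice (3782 of all tested genes). The numbers did not pair the mice, since deviations of same-numbered mice correlated at -0.459 to 0.485 (median -0.061, 22 pairs, 4 above 0.1) and of others at a median of -0.026, so a call lost there says nothing of the size of a change.

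Changes of sign were seen for ligands that were not called. Ccl11 in LLC + rFibcd1 against LLC became 0.0075 with median-ratio scaling and 0.020 after quantile normalization, and over all tumor-bearing mice 0.030 with the replicate block and -0.073 to 0.035 when each mouse was left out, above 0 in 6 fits. Ccl6 and Ccl9 in LLC + rFibcd1 against LLC became 0.34 and 0.22 with the B cell score. Depth limits Xcl1, Ccl8, Ccl22 and Cxcl17, where a mouse could hold 0 or 1 read, and Ccl12, which rested on 5 to 51 reads.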
